A study of Homo sapiens with 8 samples.

Results

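Expression of 10 heat shock and endoplasmic reticulum (ER) chaperone genes was examined among the 60675 genes counted in Panc10.05 cells, an established human pancreatic cancer cell line. The genes were taken by name and not by a threshold on their values, although earlier results of these data were known: HSPA1A, HSPA1B and HSPA8 (cytosolic HSP70 proteins), their cochaperones DNAJB1, HSPH1 and BAG3, HSP90AA1 (cytosolic HSP90), HSPB1 (a small heat shock protein), and HSPA5 and HSP90B1 of the ER. Indisulam, a sulfonamide drug, brings RBM39, an RNA-binding splicing factor, to the DCAF15 ubiquitin ligase, and RBM39 protein is then degraded. RNA was sequenced in 8 libraries, 2 in each of 4 groups. Parental untreated cells had received no drug, and parental indisulam cells 2 µM indisulam for 18 h. The indisulam-resistant population had been raised from Panc10.05 by stepwise dosing. Resistant indisulam cells were kept on 2 µM of the drug without a break. Resistant untreated cells came from the same population after a week-long drug holiday. The time on the drug therefore differed between the treated groups, and line and culture history cannot be told apart. The study calls the paired libraries technical replicates, so the p-values below measure the spread between these libraries only.

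Chaperones bind unfolded proteins and help them fold or hand them on for degradation. In the cytosol, HSP70 proteins work in cycles that J-domain proteins such as DNAJB1 start and that nucleotide exchange factors such as HSPH1 and BAG3 complete, HSP90 finishes the folding of kinases and other clients, and small heat shock proteins such as HSPB1 hold unfolded proteins without using ATP. Heat shock factor 1 (HSF1) drives the inducible members of this set when unfolded protein accumulates. In the ER, HSPA5 (BiP) and HSP90B1 (GRP94) do the like work and are induced by the unfolded protein response through the sensors ATF6, ERN1 (IRE1) and EIF2AK3 (PERK). The exocrine pancreas is a secretory tissue with a large ER folding load.

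The sequences before the start sites of 5 of the genes are shown because heat shock genes and ER chaperone genes are known for different promoter elements. All are RefSeq sequences (GRCh38.p14), written 5′ to 3′ on the strand of the gene, and stretches inside an exon of any annotated gene were left out. Capitals mark the searched motifs: GAANNTTC, the core of a heat shock element, and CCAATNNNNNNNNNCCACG, the ER stress element. In HSPA1A (chr6:31815293-31815542, plus strand), HSPA1B (chr6:31827488-31827737, plus strand), HSPB1 (chr7:76302423-76302672, plus strand), DNAJB1 (chr19:14518408-14518647, minus strand) and HSPA5 (chr9:125241383-125241593, minus strand) the stretches read:
HSPA1A: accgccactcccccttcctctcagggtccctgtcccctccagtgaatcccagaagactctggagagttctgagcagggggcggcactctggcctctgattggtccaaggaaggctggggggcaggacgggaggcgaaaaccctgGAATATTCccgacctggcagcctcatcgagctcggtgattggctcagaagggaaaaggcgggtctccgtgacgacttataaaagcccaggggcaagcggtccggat
HSPA1B: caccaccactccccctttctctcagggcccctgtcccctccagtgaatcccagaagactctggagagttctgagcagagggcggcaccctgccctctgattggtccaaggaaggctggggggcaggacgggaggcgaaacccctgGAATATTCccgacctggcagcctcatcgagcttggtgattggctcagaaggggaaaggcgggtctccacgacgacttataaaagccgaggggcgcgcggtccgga
HSPB1: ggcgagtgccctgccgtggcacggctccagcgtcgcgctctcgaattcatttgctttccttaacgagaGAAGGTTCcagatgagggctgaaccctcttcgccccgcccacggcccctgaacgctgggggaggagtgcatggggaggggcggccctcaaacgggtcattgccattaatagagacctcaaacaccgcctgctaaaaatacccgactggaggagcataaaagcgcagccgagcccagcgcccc
DNAJB1: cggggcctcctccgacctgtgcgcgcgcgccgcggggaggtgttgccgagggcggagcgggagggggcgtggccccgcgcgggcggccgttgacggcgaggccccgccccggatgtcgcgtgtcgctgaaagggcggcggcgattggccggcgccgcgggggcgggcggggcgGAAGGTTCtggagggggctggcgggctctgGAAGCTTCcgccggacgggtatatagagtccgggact
HSPA5: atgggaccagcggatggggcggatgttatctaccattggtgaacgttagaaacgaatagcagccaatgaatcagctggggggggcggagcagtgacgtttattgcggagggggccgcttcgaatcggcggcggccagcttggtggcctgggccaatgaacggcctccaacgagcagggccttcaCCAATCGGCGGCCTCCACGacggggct
The HSPA1A and HSPA1B stretches were identical at 235 of 249 aligned bases (94.4%) and carried the same heat shock core at −106 and −105 from the start. HSPB1 had 1 core at −182, and DNAJB1 had 2, at −77 and −47. The HSPA5 stretch held the ER stress element at −66.

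All 10 genes had RefSeq promoter windows of 250 bases before to 50 after a start, and DNAJB1 and HSP90AA1 had more than 1 window. The first DNAJB1 window held none of the searched letters, the second is the one shown, and the third held GAANNTTC at 1, just past the start. The first HSP90AA1 window held none, and the second held GAANNTTC at −83 and its rearranged form TTCNNGAA at −88 and −68. In HSPA8 the cores overlapped as GAANNTTC at −230 and −50 and TTCNNGAA at −225 and −55, and HSP90B1 had 2 ER stress elements, at −194 and −89. HSPH1 and BAG3 held none of the searched letters. On either strand, GAANNTTC occurred in 6.77% of the 35116 windows in the table, TTCNNGAA in 7.74%, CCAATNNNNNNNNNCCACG in 0.0769%, and TGACGTGG, a form of the unfolded protein response element that no member held, in 0.729%. These matches describe letters and show no binding.

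On GRCh38, HSPA1A (ENSG00000204389, chromosome 6:31815543-31817946, plus strand) and HSPA1B (ENSG00000204388, 6:31827738-31830254, plus strand) have 1 exon each and lie side by side. HSPA8 (ENSG00000109971) is at 11:123057489-123063230 on the minus strand with 9 exons. DNAJB1 (ENSG00000132002) is at 19:14514769-14560391 on the minus strand with 3 exons in its canonical transcript, HSPH1 (ENSG00000120694) at 13:31134973-31162388 on the minus strand with 18, and BAG3 (ENSG00000151929) at 10:119651380-119677819 on the plus strand with 4. HSP90AA1 (ENSG00000080824) is at 14:102080742-102139699 on the minus strand with 11 exons, and HSPB1 (ENSG00000106211) at 7:76302673-76304295 on the plus strand with 3. HSPA5 (ENSG00000044574) is at 9:125234853-125241382 on the minus strand with 8 exons and HSP90B1 (ENSG00000166598) at 12:103930107-103953931 on the plus strand with 18.

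Each library had between 65266253 and 108002436 reads in genes, and the 10 chaperones took 0.825% to 0.931% of them. Mitochondrial transcripts took 4.19% and 4.33% of gene reads in parental cells without drug and 2.61% and 2.24% with it, and 3.003% and 3.45% in resistant cells off the drug and 3.84% and 3.52% on it. All of the 45 tests of the members that could be rerun without mitochondrial and the 10 most abundant genes (HSPA8 among them) kept their call. The protocol fields of the labels name A549, a lung line, whereas titles and cell line fields name Panc10.05. The study's methods describe parental and resistant cells sequenced from Panc10.05, and A549 cells from a separate drug combination experiment. All 9 epithelial and ductal markers had reads in every library (summed level 6311 to 12690 CPM, gene counts relative to the library's total). The 5 lung alveolar markers summed to between 2 and 21 reads, with SFTPA1, SFTPB and NKX2-1 at 0. No library of known A549 cells was compared, so whether the epithelial or lung markers tell Panc10.05 from A549 was not tested. Of the leukocyte markers, PTPRC and CD3E were at 0 throughout and CD14 had 6 to 28 reads. Of the 5 fibroblast markers, DCN and LUM were at 0, COL1A2 and PDGFRB had at most 4 reads, and COL1A1 had 99 to 374 reads, at 1.33 to 1.84 CPM in 6 libraries and 4.059 and 4.005 CPM in the resistant indisulam libraries. The part of this in the results was not tested. The endothelial markers summed to at most 0.350 CPM. RBM39 mRNA, which is no check of protein loss, was at 331.9 and 336.5 CPM in parental cells without drug and 716.2 and 731.4 CPM with it, and at 298.8 and 310.9 CPM in resistant cells off the drug and 577.4 and 591 CPM on it.

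Levels of genes below are on the CPM scale after TMM adjustment of the library sizes, and fold changes come from an edgeR quasi-likelihood fit to the 16661 genes that passed a filter on low counts, all 10 chaperones among them. A gene was called higher or lower at a Benjamini-Hochberg adjusted p under 0.05 over all genes tested. On levels per kilobase of the canonical transcript in parental untreated cells, HSPA8 stood first at 1501 CPM per kb, HSP90AA1 followed at 659.9, HSP90B1, HSPA5 and HSPB1 had 270.3, 261.4 and 208.6, DNAJB1 had 104.5, and BAG3, HSPH1, HSPA1A and HSPA1B had 47.2, 41.9, 37.9 and 22.9. Over merged exons, the length chosen first, HSP90B1 fell behind HSPA5 and HSPB1 (57.4 against 157.0 and 99.9 CPM per kb), because its annotated exons add up to 13092 bases against 2782 in the canonical transcript. DNAJB1 likewise fell behind BAG3 and HSPA1A (28.6 against 44.2 and 37.9 CPM per kb), with 8188 bases against 2242. HSPA8, the constitutive HSP70, and HSP90AA1 led under both lengths in all 4 groups.

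**Figure D1:**
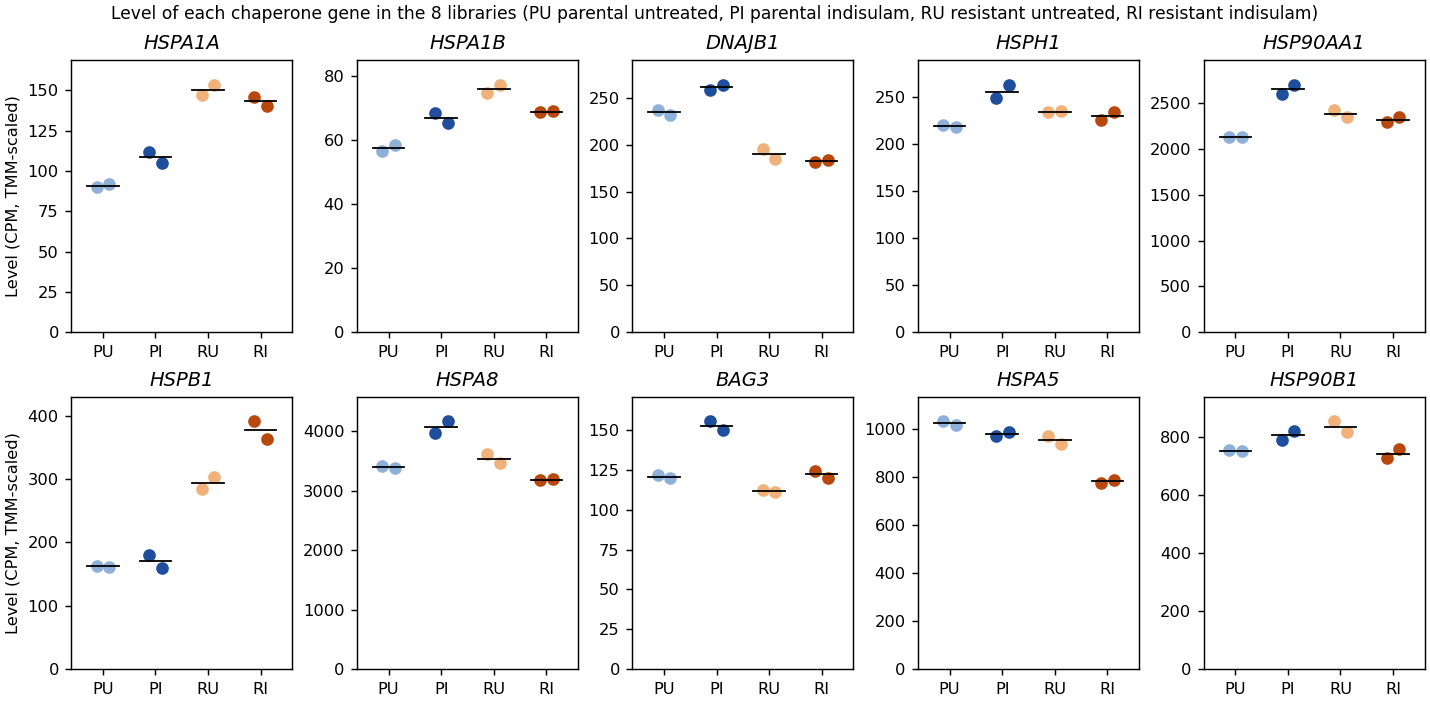
Level (CPM, TMM-scaled, linear axes from 0) of each chaperone gene, with 1 point per library and a line at the mean of each group of 2. Parental indisulam cells (PI) held the highest levels of DNAJB1, HSPH1, HSP90AA1, HSPA8 and BAG3, resistant cells (RU, RI) those of HSPA1A and HSPB1, and HSPA5 was lowest in resistant cells on the drug, at 775.3 and 787.9 CPM.

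In parental cells, 8 of the 10 chaperones were higher after 18 h of indisulam, by 1.07 to 1.27 times. They were BAG3, HSP90AA1, HSPA8, HSPA1A, HSPH1, HSPA1B, DNAJB1 and HSP90B1. HSPA5 was slightly lower and HSPB1 was not called. Across all genes tested, 31.6% were called higher and 26.6% lower, and the median log2 fold change was 0.01, against 0.22 over the chaperones. The rises were small, since 6.25% of all genes passed a test against a change of 0.5 log2 units in this comparison and none of the 10 chaperones did.

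BAG3, which links HSP70 to small heat shock proteins and to autophagy, had the largest of these rises. It had 121.8 and 120 CPM in the untreated libraries and 155.7 and 150.5 CPM in the treated ones. The groups did not overlap (log2 fold change 0.34 ± 0.03 SE, adjusted p = 1.2e-09). HSP90AA1, the inducible cytosolic HSP90, went from 2131 and 2129 CPM to 2597 and 2695 CPM. Its log2 fold change was 0.31 ± 0.03 (adjusted p = 6.2e-09), with treated libraries above both untreated ones. HSPA8 had 3417 and 3379 CPM without and 3964 and 4167 CPM with the drug, a log2 fold change of 0.26 ± 0.03 (adjusted p = 2.5e-07). All 8 higher genes had both treated libraries above both untreated libraries. The calls came from these same libraries and the share of all genes so separated was not counted, so this adds no support.

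The stress-inducible HSP70 genes and 2 cochaperones made up most of the rest. HSPA1A was at 89.94 and 92.09 CPM in untreated and 112 and 104.9 CPM in treated parental cells (log2 fold change 0.25 ± 0.03, adjusted p = 1.2e-06). HSPA1B was at 56.62 and 58.45 CPM and then at 68.54 and 65.43 CPM (0.22 ± 0.03, adjusted p = 5.2e-06). HSPH1, the HSP110 exchange factor, went from 220.9 and 218.4 to 248.7 and 263.2 CPM, with a log2 fold change of 0.22 ± 0.03 (adjusted p = 1.3e-06). DNAJB1, the J-domain partner of HSP70, went from 237.3 and 231.3 to 258.7 and 263.7 CPM, with a log2 fold change of 0.16 ± 0.03 (adjusted p = 7.7e-05). DNAJB1 shares 525 exonic bases with TECR on the opposite strand, and the strand setting of the counting is not given in the sources used here.

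The ER chaperones had small fold changes in parental cells. HSP90B1 was at 753.2 and 750.5 CPM untreated and 790.4 and 821.3 CPM on the drug (log2 fold change 0.10 ± 0.03, adjusted p = 0.0078). This call depended on the scaling: with library totals alone the value was 0.03 (adjusted p = 0.35), and with a filter at a mean of 1 CPM it was 0.04 (adjusted p = 0.23). It was also lost without parental untreated replicate 1 or 2 or parental indisulam replicate 2 (adjusted p 0.055 to 0.11). HSPA5 was at 1032 and 1017 CPM and then at 971.9 and 986.2 CPM, a log2 fold change of −0.07 ± 0.03 that was at the threshold (adjusted p = 0.049) and lost its call when any parental library (adjusted p 0.10 to 0.27) or either resistant indisulam library (0.058) was left out. HSPB1 had 163.1 and 161 CPM untreated and 179.8 and 160 CPM treated, so the groups overlapped (0.07 ± 0.07, adjusted p = 0.42). Without the second parental indisulam library its value was 0.15 and called (adjusted p = 0.0023), and without the first it was −0.02.

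In resistant cells, HSPB1 and BAG3 were higher on indisulam than after the drug holiday. HSPA5, HSP90B1, HSPA8 and HSPA1B were lower, by 0.82 to 0.91 times. HSPA1A, DNAJB1, HSP90AA1 and HSPH1 were not called. The background was 24.9% of genes higher, 25.8% lower and 5.28% past 0.5 log2 units, a test that no chaperone passed. The median was −0.06 over the chaperones and 0.01 over all genes, and a count of 2 higher and 4 lower of 10 is thus near these shares.

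HSPB1, which was not called in parental cells, had the largest change in resistant cells. It was at 283.4 and 303.2 CPM off the drug and at 390.9 and 363.5 CPM on it (log2 fold change 0.36 ± 0.06, adjusted p = 0.0032). BAG3 went from 112.6 and 111.1 to 124.5 and 120.3 CPM (0.13 ± 0.03, adjusted p = 0.00096) and was the one chaperone called higher on the drug in both lines. HSPA5, the ER HSP70, fell from 970 and 936.1 to 775.3 and 787.9 CPM, the largest fall of the set (−0.29 ± 0.03, adjusted p = 1.2e-08). HSP90B1, the ER HSP90, fell from 853.1 and 815.8 to 725.8 and 759.1 CPM (−0.17 ± 0.03, adjusted p = 7.7e-05).

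In the cytosol HSPA8 had 3624 and 3460 CPM off and 3185 and 3190 CPM on the drug in resistant cells (−0.15 ± 0.03, adjusted p = 0.00029). HSPA1B had 74.82 and 77.32 CPM and then 68.71 and 69.27 CPM (−0.14 ± 0.03, adjusted p = 0.0011). Both were lower in each treated library than in either untreated one, and so were HSPA1A and DNAJB1, which were not called. The share of all genes so separated was not counted, so this adds no support. HSPA1A, at 147.4 and 153.5 against 146 and 140.6 CPM, missed the threshold (−0.07 ± 0.03, adjusted p = 0.082). DNAJB1 had 194.9 and 184.7 CPM off and 181 and 183.3 CPM on the drug (−0.06 ± 0.03, adjusted p = 0.10). HSPA1A gained a call without resistant untreated replicate 1 (adjusted p = 0.037) or either parental indisulam library (0.041), and DNAJB1 without resistant untreated replicate 2 (0.0094). HSP90AA1 had 2417 and 2343 against 2288 and 2343 CPM, and HSPH1 234.3 and 235.2 against 225.5 and 234.5 CPM, and in both genes the groups overlapped. Their 95% intervals were −0.10 to 0.02 and −0.09 to 0.03 log2 units, so changes as large as their parental rises lay outside them.

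**Figure D2:**
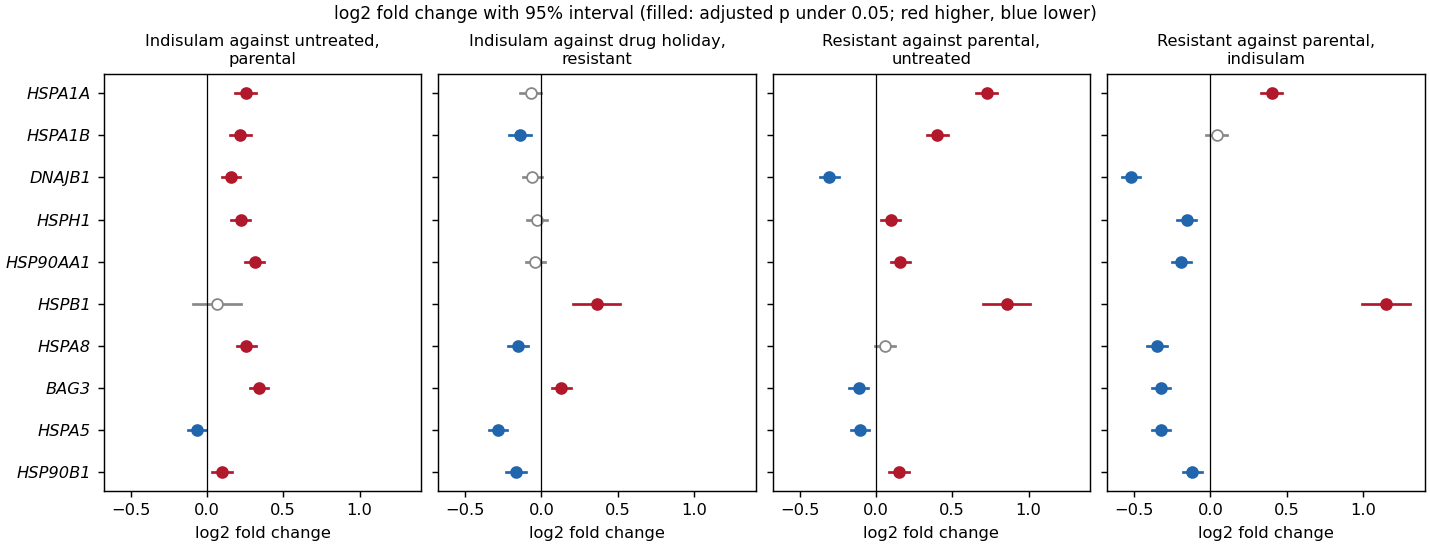
log2 fold change of each chaperone with its 95% interval in the drug comparisons of each line and in the line comparisons off and on the drug. Filled points passed an adjusted p of 0.05 (red higher, blue lower) and open grey points did not. HSPB1 stands furthest to the right in both line comparisons, at 0.86 and 1.15.

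The difference of the responses, tested as an interaction, was called for all 10 chaperones. In 9 the response was lower in resistant than in parental cells: HSPA8 (−0.41 ± 0.05), HSPA1B (−0.36 ± 0.05), HSP90AA1 (−0.35 ± 0.04), HSPA1A (−0.32 ± 0.05), HSP90B1 (−0.27 ± 0.04), HSPH1 (−0.25 ± 0.04), HSPA5 (−0.22 ± 0.04), DNAJB1 (−0.22 ± 0.04) and BAG3 (−0.21 ± 0.04). HSPB1 alone had the greater response in resistant cells (0.29 ± 0.09, adjusted p = 0.036). Of all genes tested, 22.7% had a higher and 27.5% a lower response in resistant cells, and 5.45% passed the test against 0.5 log2 units, which no chaperone did. The median was −0.26 over the chaperones and 0.01 over all genes. Scaling by library totals in place of TMM moved the median of all genes by 0.12 log2 units upward here. All 10 kept their direction under it, and BAG3 alone of the 10 lost its call (−0.10, adjusted p = 0.062). The HSPB1 call was lost when any of 4 single libraries was left out, namely parental untreated replicate 1 or 2, resistant untreated replicate 1 or resistant indisulam replicate 1 (adjusted p 0.056 to 0.072).

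**Figure D3:**
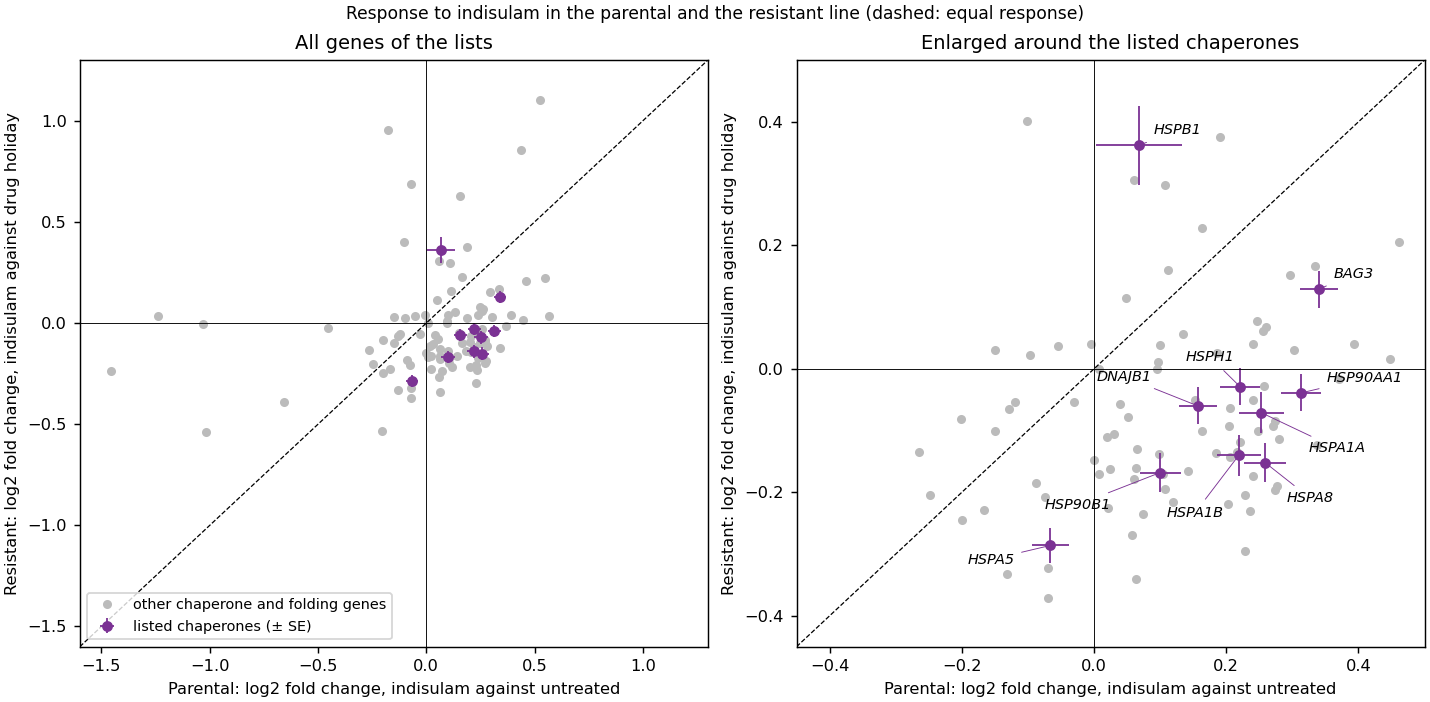
log2 fold change on indisulam in parental cells (horizontal) against that in resistant cells (vertical) for the listed chaperones (purple, with SE) and the other chaperone and folding genes of the lists (grey), whole and enlarged. All listed chaperones but HSPB1 lie below the dashed line of equal response, and HSPB1 lies at 0.07 and 0.36.

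Summed, the 10 genes took 8224 and 8157 CPM in parental cells without drug and 9347 and 9677 CPM with it. In resistant cells they took 8911 and 8620 CPM off the drug and 8110 and 8192 CPM on it. The parental libraries on the drug were highest, and the range of the resistant libraries on the drug overlapped that of the parental libraries without it. HSPA8 and HSP90AA1 make up most of this sum.

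Between the lines off the drug, 6 chaperones were higher in resistant cells and 3 lower. HSPB1, HSPA1A, HSPA1B, HSP90AA1, HSP90B1 and HSPH1 were higher, DNAJB1, BAG3 and HSPA5 lower, and HSPA8 was not called (0.06 ± 0.03, adjusted p = 0.11) unless resistant untreated replicate 2 was left out (adjusted p = 0.010). Of all genes, 30.3% were higher, 29.9% lower and 15.5% past 0.5 log2 units. This comparison shares the parental untreated libraries with the parental drug response, and the resistant untreated libraries with the resistant one. Epithelial markers differed between the lines too, as summed levels were 6617 and 6477 CPM in parental untreated against 10940 and 10920 CPM in resistant untreated libraries, and their part in the result was not tested.

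HSPB1 was 1.81 times as high in resistant as in parental untreated cells (log2 fold change 0.86 ± 0.07, adjusted p = 2.8e-05), and HSPA1A 1.65 times as high (0.72 ± 0.03, adjusted p = 8.1e-15). These 2 genes passed the test against 0.5 log2 units (adjusted p = 0.0014 and 1e-06). HSPA1B was 1.32 times as high (0.40 ± 0.03). The other rises were below 1.12 times, namely HSP90AA1 (0.16 ± 0.03), HSP90B1 (0.15 ± 0.03) and HSPH1 (0.10 ± 0.03). DNAJB1 ran the other way, at 0.81 times the parental level (−0.30 ± 0.03, adjusted p = 4.1e-09). BAG3 (−0.11 ± 0.03) and HSPA5 (−0.10 ± 0.03) were slightly lower, and the HSPA5 call was lost without parental untreated replicate 1 (adjusted p = 0.055) or resistant untreated replicate 2 (adjusted p = 0.11). The HSPH1 call was lost without parental untreated replicate 2 (adjusted p = 0.084).

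Between the lines on the drug, 2 chaperones were higher in resistant cells and 7 lower. HSPB1 was 2.22 times as high (1.15 ± 0.07, adjusted p = 4.1e-06) and passed the test against 0.5 log2 units (adjusted p = 7.6e-05). HSPA1A was 1.32 times as high (0.40 ± 0.03, adjusted p = 3.2e-10). DNAJB1 was 0.70 times as high (−0.52 ± 0.03, adjusted p = 1.8e-13), and HSPA8 (−0.35 ± 0.03), HSPA5 (−0.33 ± 0.03), BAG3 (−0.32 ± 0.03), HSP90AA1 (−0.19 ± 0.03), HSPH1 (−0.15 ± 0.03) and HSP90B1 (−0.12 ± 0.03) were lower as well. HSPA1B did not pass (0.04 ± 0.03, adjusted p = 0.26), although its libraries did not overlap. Of all genes, 34.6% were higher, 34.9% lower and 21.1% past 0.5 log2 units. HSP90B1 lost its call with library totals (−0.03, adjusted p = 0.37) and with a filter at a mean of 1 CPM (−0.04, adjusted p = 0.26), and HSPA1B gained one under each (0.13 and 0.12). The HSP90B1 call was also lost without parental indisulam replicate 2 (adjusted p = 0.053) or resistant indisulam replicate 1 (0.054).

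HSPA1A and HSPA1B are nearly identical copies, and reads that match both could be split between them or dropped. Of the 150-base windows of the HSPA1A transcript, 69.6% also occur in HSPA1B, and 66.1% of those of HSPA1B occur in HSPA1A. No such window of 7 of the other chaperones occurs in another gene, and 0.0265% of those of HSPA5 do. The values of each copy are thus uncertain. The sum of both copies was higher on indisulam in parental cells (log2 fold change 0.24 ± 0.03, adjusted p = 1e-06), lower in resistant cells (−0.11 ± 0.03, adjusted p = 0.0073), and higher in the resistant than in the parental line whether untreated (0.62 ± 0.03, adjusted p = 8e-14) or treated (0.27 ± 0.03, adjusted p = 8.5e-08).

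The share of HSPA1A in the reads of both copies differed by line. It was 61.4% (95% Wilson interval 60.6 to 62.1) and 61.2% (60.4 to 61.9) in parental untreated libraries and 62.0% (61.2 to 62.9) and 61.6% (60.8 to 62.4) in parental indisulam libraries. It was 66.3% (65.6 to 67.0) and 66.5% (65.8 to 67.3) in resistant untreated and 68.0% (67.2 to 68.8) and 67.0% (66.3 to 67.6) in resistant indisulam libraries. All resistant libraries lay above all parental ones, by more than the counting intervals, which cover counting error only. Within a line the treated and untreated intervals overlapped for at least 1 pair of libraries.

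Across the 8 libraries the levels of HSPH1 and HSP90AA1 were most alike of the 45 pairs (Pearson r of log2 CPM 0.97). HSPA1A went with HSPB1 (0.91) and HSPA1B (0.92), and DNAJB1 against HSPB1 (−0.94). These are descriptions over libraries that fall into 4 groups. The genes most like DNAJB1 among the 9150 searched (mean log2 CPM of at least 3) were STYXL1, SLC35E1, SLC30A9, NSRP1 and TOMM7 (r of 0.997 to 0.999), and those most like HSPA5 were DIPK1A, FH, OXR1, NOLC1 and RPL3 (0.993 to 0.998).

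A wider set of 104 genes in 8 lists (heat shock factors, other HSP70 and J-domain genes, HSP90 cochaperones, small heat shock proteins, the CCT chaperonin and prefoldin, mitochondrial chaperones, ER folding enzymes, and unfolded protein response genes) was counted beside them, without the 10 members. Of these, 97 passed the filter. In parental cells 48 of 97 (49.5%) were higher on indisulam and 21 (21.6%) lower, with a median log2 fold change of 0.10, against 31.6% and 26.6% of all genes. In resistant cells 15 (15.5%) were higher and 46 (47.4%) lower (median −0.09), against 24.9% and 25.8%. The response was lower in resistant cells for 59 (60.8%) and higher for 14 (14.4%, median −0.19), against 27.5% and 22.7%. With library totals 24 were higher in resistant cells and 25 had a higher response there, and with a filter at a mean of 1 CPM 23 had. The calls of all genes moved upward too. With library totals 59.7% of called genes were higher in the resistant response and 65.8% in the difference, against 49.1% and 45.2% with TMM. With the filter 54.2% of called genes were higher in the difference. Off the drug 50 (51.5%) were higher and 17 (17.5%) lower in resistant cells, against 30.3% and 29.9%, and on it 29 (29.9%) were higher and 55 (56.7%) lower, against 34.6% and 34.9%. Against a change of 0.5 log2 units, 0 rises and 4 falls passed in parental cells, and 1 rise and 0 falls in resistant cells. Of all genes, 6.25% passed in parental cells, 13.4% of these being rises, and 5.28% in resistant cells, 59.6% of these being rises.

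**Figure D4:**
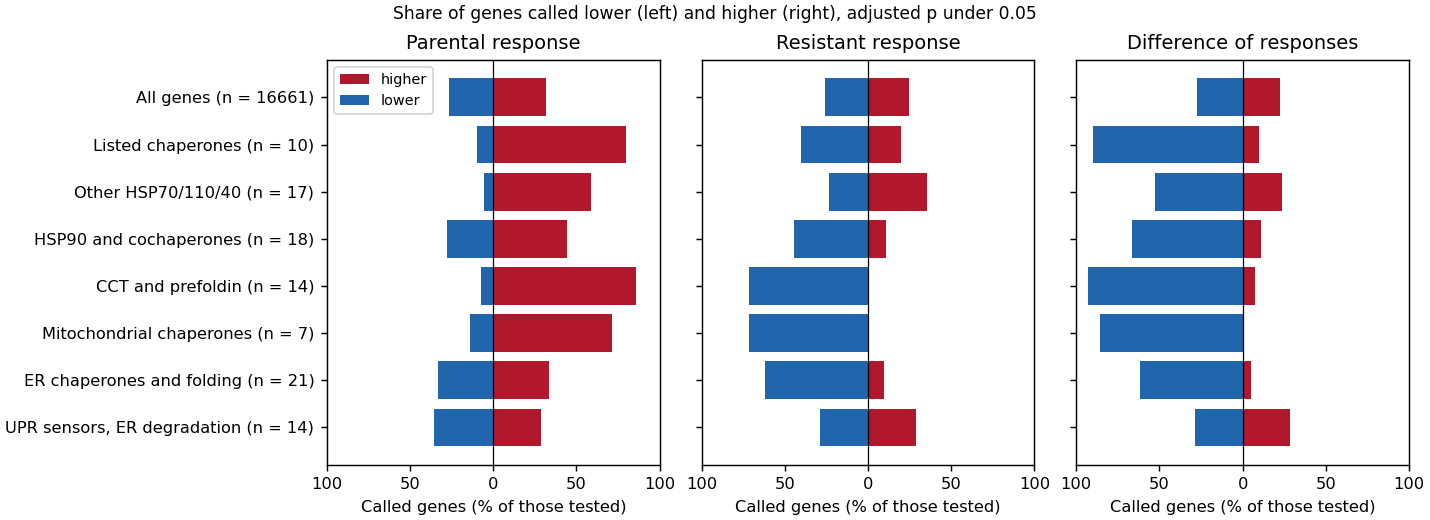
Share of tested genes called higher (red, to the right) and lower (blue, to the left) on indisulam in parental cells, in resistant cells and in the difference of the responses, for all 16661 genes, the listed chaperones and the lists of 7 or more tested genes. In the CCT and prefoldin list 85.7% were higher in parental cells and 71.4% lower in resistant cells, against 31.6% and 25.8% of all genes.

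The CCT chaperonin, which folds actin and tubulin, and prefoldin, which feeds it, were higher in parental cells on the drug in 12 of 14 genes (85.7%, against 31.6% of all genes) and lower in 1, while in resistant cells 10 were lower (71.4%, against 25.8%) and none higher. The difference of responses was lower in 13 of 14, against 27.5% of all genes. PFDN4 rose by 0.34 ± 0.04 and PFDN1 by 0.27 ± 0.03 log2 units in parental cells, and PFDN2 (−0.29 ± 0.03) and CCT6A (−0.20 ± 0.03) fell in resistant cells. The exception was PFDN5, at only 2.31 to 5.15 CPM, which fell by 1.03 log2 units in parental cells and was not called in resistant cells (−0.00 ± 0.08, adjusted p = 0.99). As much as 25.7% of its exonic bases lie in another gene on the same strand, which the counting may have treated as ambiguous. PFDN5 was named after its value was seen.

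Mitochondrial chaperones were higher in 5 of 7 and lower in 1 in parental cells, and lower in 5 with none higher in resistant cells, where the all-gene shares are 31.6% higher and 26.6% lower for the parental and 24.9% and 25.8% for the resistant response. HSPD1, the mitochondrial HSP60, had a log2 fold change of 0.24 ± 0.03 in parental cells, and its partner HSPE1 0.28 ± 0.09 (adjusted p = 0.036), while TRAP1, the mitochondrial HSP90, was lower in resistant cells (−0.32 ± 0.03), as was GRPEL1 (−0.20 ± 0.04). Among 17 other HSP70, HSP110 and J-domain genes, 10 (58.8%) were higher and 1 (5.88%) lower in parental cells, with HSPA13 (0.46 ± 0.04) and DNAJC2 (0.45 ± 0.03) foremost. In resistant cells 6 (35.3%) were higher and 4 (23.5%) lower, the latter near the share of all genes. There DNAJB5 (0.63 ± 0.06) and DNAJB2 (0.38 ± 0.03) rose most among the better expressed.

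Of 18 genes for HSP90 and its cochaperones, 8 (44.4%) were higher and 5 (27.8%) lower in parental cells, the latter near the 26.6% of all genes. In resistant cells 2 (11.1%) were higher and 8 (44.4%) lower, against 24.9% and 25.8% of all genes. PPID, a cyclophilin that binds HSP90, rose by 0.57 ± 0.03 log2 units in parental cells, from 104.1 to 154.3 CPM on average, though 56.7% of its exonic bases lie opposite ETFDH. AHSA2P fell by 1.24 ± 0.12 log2 units there. AHSA2P, DDIT3, TRAP1, PPIB and DNAJC2, which are named here, also have exonic bases opposite another gene, 35.9%, 31.6%, 28.5%, 26.6% and 20.9% of their own. In resistant cells the immunophilins FKBP5 (−0.54 ± 0.03) and FKBP4 (−0.37 ± 0.03) fell most. Between the lines on the drug 15 of 18 (83.3%) were lower in resistant cells, against 34.9% of all genes, led among these by BAG1 (−0.89 ± 0.03), an HSP70 exchange factor.

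Of the 21 ER chaperones and folding enzymes, 7 (33.3%) were higher and 7 lower in parental cells, near the 31.6% and 26.6% of all genes. In resistant cells 2 (9.52%) were higher and 13 (61.9%) lower, against 24.9% and 25.8%. PPIB, a cyclophilin of the ER (−0.34 ± 0.03), and SDF2L1 (−0.33 ± 0.05) fell most in resistant cells among the better expressed. SERPINH1, the collagen chaperone, rose in both lines (0.33 ± 0.03 in parental cells), and ERP44, which retains proteins in the early secretory path, rose in parental cells (0.27 ± 0.03) and was lower in resistant than parental cells on the drug by 0.95 ± 0.03 log2 units. Of the 14 sensors and ER degradation genes, 4 (28.6%) were higher and 4 lower in resistant cells, and 4 higher and 5 (35.7%) lower in parental cells, shares near those of all genes.

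Of the 4 heat shock factors and regulators, 1 (25%) was higher and 1 lower in parental cells, near the 31.6% and 26.6% of all genes. In resistant cells 2 (50%) were lower, against 25.8% of all genes. HSF1 itself was not called in parental cells (0.03 ± 0.03, adjusted p = 0.47), and it fell in resistant cells (−0.10 ± 0.03, adjusted p = 0.013). HSF2 passed in neither line (0.10 ± 0.05 and 0.04 ± 0.06), and HSBP1, which binds HSF1, rose in parental cells (0.24 ± 0.03) and fell in resistant cells (−0.23 ± 0.03). HSF4, named after its values were seen, had the largest change of the list. It was at 8.35 and 8.64 CPM in parental cells without drug and 3.25 and 2.93 CPM with it (−1.46 ± 0.12, adjusted p = 1.4e-06), a change past 0.5 log2 units (adjusted p = 0.00013). In resistant cells HSF4 was at 8.34 and 10.6 CPM off the drug and 8.66 and 7.46 CPM on it (−0.24 ± 0.11, adjusted p = 0.090), and its responses differed by 1.22 ± 0.16 (adjusted p = 9.6e-05). Another gene on the same strand covers 27.1% of its exonic bases. ATF6 rose in parental cells (0.28 ± 0.03) and fell in resistant cells (−0.11 ± 0.03), and its relative ATF6B fell in parental cells (−0.46 ± 0.03). ERN1 rose in resistant cells (0.31 ± 0.05) and was not called in parental ones (0.06 ± 0.05). EIF2AK3 rose in resistant cells as well (0.23 ± 0.04), as it did in parental cells (0.16 ± 0.04). XBP1, whose mRNA ERN1 splices, was lower on the drug in both (−0.09 ± 0.03 and −0.19 ± 0.03). DDIT3 (CHOP), a late marker of the ER stress response, rose in resistant cells by 0.40 ± 0.05, and its response was higher there than in parental cells (0.50 ± 0.07, adjusted p = 5.8e-06).

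Beyond HSPB1, 8 genes were placed in the list named for small heat shock proteins. HSPB2, HSPB3 and CRYAA had no read in any library, HSPB6, HSPB7 and CRYAB reached at most 12, 2 and 18 reads, and HSPB8 and HSPB11 (IFT25) were tested. HSPB11 had mean levels of 28.7 to 33.9 CPM in the 4 groups. It was not called on the drug in either line and was higher in resistant than parental cells both untreated (0.15 ± 0.04, adjusted p = 0.0016) and treated (0.24 ± 0.04, adjusted p = 8.3e-06). HSPB8, the partner of BAG3, was named after its values were seen. It was at 2.16 and 2.56 CPM in parental cells without drug and 3.43 and 3.36 CPM with it, and at 4.47 and 4.65 CPM in resistant cells off the drug and 9.57 and 9.95 CPM on it. HSPB8 was higher on the drug in parental (0.52 ± 0.10, adjusted p = 6.4e-05) and in resistant cells (1.10 ± 0.08, adjusted p = 5.9e-11). Its difference of responses was 0.58 ± 0.13 (adjusted p = 0.00054). HSPA6, the most strictly stress-induced HSP70, was also named after its values were seen. It had 41, 49, 29 and 27 reads in parental libraries, untreated first, and 40, 44, 75 and 117 in resistant ones. Its level of 0.35 to 1.22 CPM was far below that of HSPA1A, and it was higher on the drug in resistant cells (0.95 ± 0.18, adjusted p = 0.00014) and not called in parental cells (−0.18 ± 0.24, adjusted p = 0.55). HSPA2 and HSP90AB1 were likewise picked after their values were seen. HSPA2, at 3.28 to 6.60 CPM, rose in resistant cells (0.69 ± 0.08) and was not called in parental cells (−0.07 ± 0.07). Off the drug HSPA2 was lower in resistant than in parental cells (−0.95 ± 0.08). HSP90AB1 rose in parental cells (0.20 ± 0.03) and fell in resistant cells (−0.22 ± 0.03).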

How the data were processed

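Polyadenylated RNA was prepared by the authors with a stranded kit and sequenced as paired-end reads, which they trimmed with SeqPurge and aligned to GRCh38 with HISAT2 (2.2.1 in the submitters' processing notes, which also name Picard and HTSeq). The authors deposited unnormalised read counts in 1 table per library, with 60675 genes and 9 lines of reads not assigned to a gene, which took 37.9% to 44.9% of each table and stayed out of all totals. Reads marked as duplicates were among these lines. The annotation release and the strand setting of the counting are not given in the sources used here, so reads of overlapping genes may be misassigned. Without molecular identifiers, reads are not independent molecules, and the depth of 65266253 to 108002436 gene reads per library covers counting error only.

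The counts were scaled (TMM), filtered (filterByExpr, 16661 genes) and fitted with edgeR 4.0.16 in R 4.3.3 as 4 group means (robust quasi-likelihood, 4 residual degrees of freedom, all 8 libraries). The study states no differential expression test for these libraries. Standard errors are the absolute log2 fold change divided by the square root of F. The code was tested on simulated counts. An exact permutation test of 2 libraries against 2 cannot go below p = 0.333, so none was used. Positions and symbols came from GENCODE release 44, which matched 60419 identifiers and all 104 pathway genes (HSPB11 through a RefSeq synonym). The members and lists were chosen with earlier results of these data known. Genes named from the lists were the 2 called genes of each list and comparison with the largest change and a mean log2 CPM of at least 3, the heat shock factors HSF1 and HSF2, and the sensors ATF6, ERN1, EIF2AK3 and XBP1, besides those said to be named after their values were seen. Alternatives were DESeq2 (1.42.0) size factors and Wald test, library totals, other filters, only the groups compared, a replicate block, a stricter threshold (0.01), testing against 0.5 log2 units with glmTreat, abundant genes left out, HSPA1A and HSPA1B summed, and each library left out. Levels per canonical transcript were added after seeing the data. Figures used matplotlib 3.10.9 in Python 3.11.15.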

Additional observations from a re-analysis of the deposited data

Results flagged for a closer look

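The response to indisulam differed between the resistant and parental lines for each of the 10 chaperones, by an interaction test in the edgeR fit (log2 units, resistant minus parental). The differences were −0.411 for HSPA8, −0.360 for HSPA1B, −0.352 for HSP90AA1, −0.324 for HSPA1A, −0.268 for HSP90B1, −0.250 for HSPH1, −0.220 for HSPA5, −0.216 for DNAJB1 and −0.211 for BAG3, and 0.295 for HSPB1. Called differences of either sign were found in 8351 of the 16661 genes tested, and the treated lines also differed in their time on the drug.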

How the results depend on the processing

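Of 925 values of single chaperones recomputed under the alternatives, 842 kept their direction and side of the threshold, 70 lost a call, 10 gained one and 3 changed sign. The sign changes were in uncalled values: HSPH1 (0.02) and HSP90AA1 (0.009) in resistant cells with library totals, and HSPB1 in parental cells without parental indisulam replicate 1 (−0.015), where leaving out replicate 2 gave 0.152. Most lost calls came from the test against 0.5 log2 units. It left 0 chaperones higher or lower in either drug response and 0 in the difference of responses, 2 higher and 0 lower off the drug, and 1 higher and 0 lower on it. Among the pathway genes it left 0 higher and 4 lower in parental cells, 1 and 0 in resistant cells, 4 and 3 off the drug, 10 and 4 on it, and 3 and 0 in the difference. In the same order, 6.25%, 5.28%, 15.5%, 21.1% and 5.45% of all genes passed it. Of these, 13.4%, 59.6%, 60.3%, 70.3% and 82.2% were higher. The 1 chaperone lower in parental cells, HSPA5, became 0 with DESeq2 size factors, the DESeq2 Wald test, an adjusted p under 0.01, the summed HSPA1 copies and each of 6 libraries left out (range 0 to 1). The 1 with a higher response in resistant cells, HSPB1, became 0 at an adjusted p under 0.01 and with 4 libraries left out in turn (range 0 to 1). With library totals 24 pathway genes were higher in resistant cells (15 with TMM) and 25 had a higher response there (14), and with a filter at a mean of 1 CPM 23 had. Calls of all genes shifted upward as well. Of those called with library totals, 59.7% were higher in the resistant response (49.1% with TMM) and 65.8% in the difference (45.2%). Leaving out single libraries gave 13 to 22 pathway genes lower in parental cells (21), the fewest without parental untreated replicate 1. The cause of these changes was not tested. Counts of paired libraries differed by more than sampling noise (mean chi-square per gene of 2.05 to 6.03). Genes of few reads, such as HSPA6, are limited by depth as well.

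Same-numbered libraries did not deviate together (correlations of −0.06 to 0.02 between groups), so the numbers were not taken as a pairing. With the replicate block, 0 chaperones were lower in parental cells (HSPA5, adjusted p = 0.074), and 49 of the 50 values kept their call.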
